A study of Mus musculus with 3 samples.

Results

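Ecel1, Fetub, Cst6, Clca4a, 1700008C04Rik and 9530059O14Rik are 6 of the 37324 genes read on the arrays. They were selected on their processed signals, because the signal in SPA (small proliferative adipocytes) exceeded that in both SVC (stromal vascular cells) and MWA (mature white adipocytes, MA in the labels). They lie outside the proliferin and clade B serpin families, some members of which peak in the same sample. Other genes outside these families, such as Gsta2 and Map7d2, have the same pattern and are not among the 6. The height of the SPA signal over the other arrays is therefore the reason for their choice and not a finding. They are represented by 9 of the 56602 probes.

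Epididymal fat of male C57/BL mice aged 20 weeks was digested with collagenase, and no genetic change or drug treatment is given for any group. The lower phase of a first spin, 9 g for 1 s in the labels, was SVC, and the floating cells were spun at 226 g for 3 min into a floating layer (MWA) and a sediment (SPA). SVC and SPA were grown in DMEM to 90% confluence but MWA were not described as cultured, so in any comparison of SPA with MWA the cell type and the culture cannot be told apart. Each group was measured on 1 array with Cy3-labeled cRNA, and the number of animals behind each RNA is not given in the sources used here. No difference between groups has a replicate check, and no test was possible. The titles of SVC and SPA carry 1 date and that of MWA another, with no word on what the date marks, so a difference tied to it and the group cannot be told apart for MWA.

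Throughout, a signal is the processed signal of a spot, in the units of the scanner after background subtraction. A level is the log2 ratio of that signal to the 75th percentile of its array, and these percentiles were 430 (SVC), 439 (SPA) and 366 (MWA). A spot that the scanner software marked as well above background is called detected. For a spot that was not detected, the fold was computed against its own level or the lowest detected level of that array, whichever was higher, and such a fold is a lower limit, introduced by the words at least. The lowest detected signals were 13.9 (SVC), 12.5 (SPA) and 10.3 (MWA), and 58.6% to 61.4% of the spots other than controls were detected. All 10 adipocyte markers examined were detected in SPA.

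Ecel1, Fetub, Cst6 and Clca4a encode proteins with known biochemical roles. Ecel1 encodes a membrane metallopeptidase of the neprilysin family that is known from neurons, where it is induced by nerve injury. Fetub and Cst6 both encode secreted protease inhibitors of the cystatin superfamily. Fetuin-B, the Fetub product, is made by the liver and inhibits the egg protease ovastacin, and cystatin E/M, the Cst6 product, inhibits legumain and cathepsins and is known from skin. Clca4a belongs to the family of chloride channel regulators, which are best known from mucosal epithelia. 1700008C04Rik and 9530059O14Rik are long noncoding RNA genes in the RefSeq table, and no role is stated for them here.

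Read at their brightest probes, all 6 genes exceeded SVC by 5-fold or more in SPA. All 6 exceeded MWA by as much, as their selection favoured. Over all genes, 0.320% of the 22808 genes detected in SPA or SVC exceeded SVC by 5-fold or more in SPA. In the comparison of SPA with MWA the share was 3.97% of 24101 genes. Both limits were passed by 30 genes, 0.123% of the 24337 genes detected on any array, whereas SPA was above both other arrays at any size for 7465 genes. Of the 30 genes, 21 were detected in SVC, and among these the ratio of SPA over SVC placed Ecel1 3rd, Cst6 11th, 9530059O14Rik 12th, Fetub 14th and Clca4a 15th. Among genes past the limit over MWA, the nearest to the 5-fold limit over SVC were Serpinb1b inside, at 5.01-fold, and Slc6a15 outside, at 4.91-fold. Among genes past the limit over SVC, the nearest to that over MWA were Il1f9 inside, at least 6.05-fold higher, and Akr1c14 outside, at 4.23-fold.

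**Figure D1:**
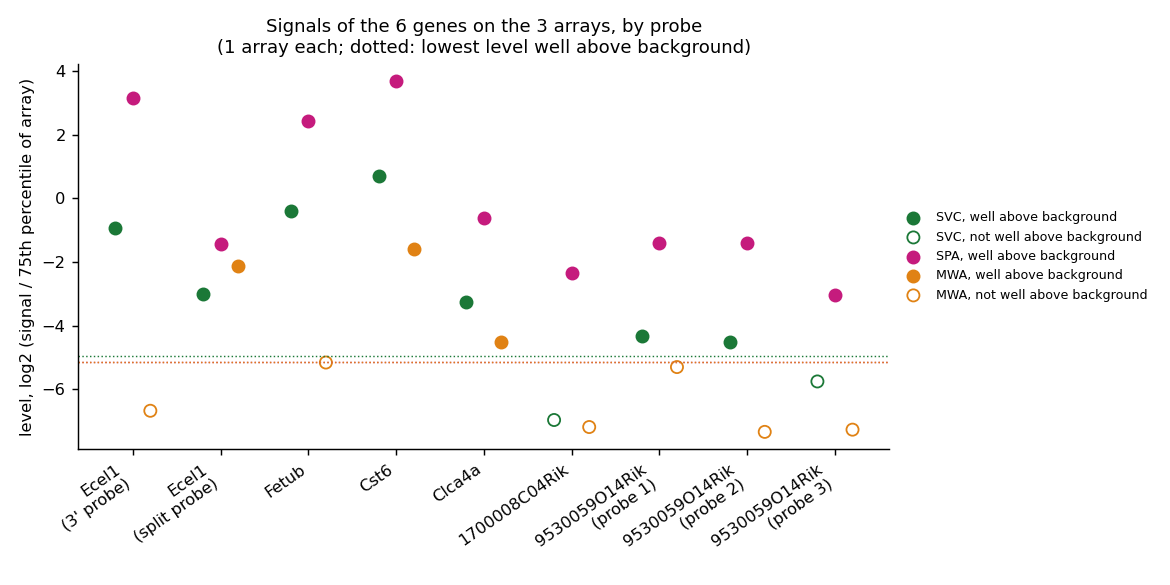
Level of each probe of the 6 genes (vertical axis, log2 of the signal over the array's 75th percentile) in SVC, SPA and MWA, with 1 array each and no error bars. SPA is the highest point for all 9 probes, and where SVC was detected MWA lies below it, except at the split probe of Ecel1.

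**Figure D2:**
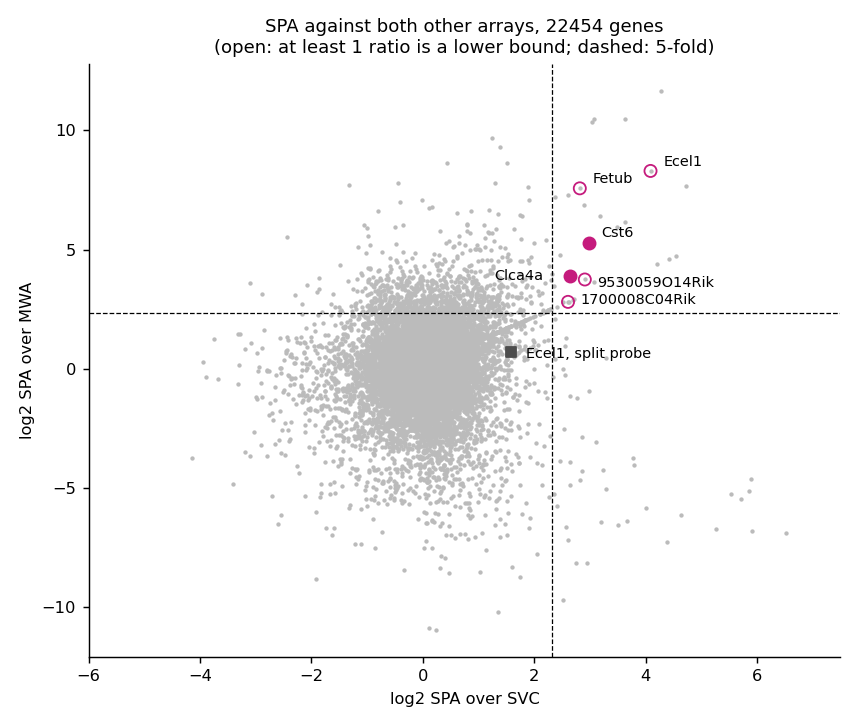
The log2 ratio of SPA over SVC (horizontal axis) against that of SPA over MWA (vertical axis) for 22454 genes (grey points), with the 6 genes in pink. The 6 genes lie in the upper right corner beyond the dashed 5-fold lines, and the grey square, the split probe of Ecel1, lies below both lines.

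Ecel1 had the largest ratio of SPA over SVC among the 6 genes, but it rested on 1 of its 2 probes. Its brighter probe gave a signal of 224 (SVC), 3894 (SPA) and 3.57 (MWA), with errors of 22.7, 389 and 2.39 in the error model of the scanner software. The levels were -0.94, 3.15 and -6.68, and the MWA spot was not detected. This placed SPA 17-fold above SVC and at least 315-fold above MWA. MWA lay at least 18.5-fold below SVC at this probe.

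The second Ecel1 probe gave 53.4 (SVC), 164 (SPA) and 84.1 (MWA), all detected. SPA was still the highest array, but only 3.00-fold above SVC and 1.62-fold above MWA. MWA was here 1.85-fold above SVC, the opposite order of the first probe. The probes lie 2.17 kb apart on the minus strand of chromosome 1 in the mm9 build of the array annotation, and the array assigns them to different RefSeq transcripts of the gene. Their sequences are shown because the reading of Ecel1 depends on which is used. The brighter probe lies toward the 3′ end, and 30 of its 60 bases (chr1:89044236-89044265, minus strand) hold a polyadenylation signal, in capitals. The second probe covers 685 bases of the genome with 60 bases (chr1:89046405-89047089, minus strand), so it is split across an intron. Each of the 2 probes has 1 reading frame without a stop codon.
Ecel1, 3′ probe: attagtctggtcAATAAAgctgctgtacta
Ecel1, split probe: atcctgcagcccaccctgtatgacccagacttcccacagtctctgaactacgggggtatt
Which of the probes follows the total Ecel1 transcript was not tested. Of the other 6 members of the neprilysin family, 3 were detected, and 0 of these were raised 5-fold or more in SPA over either other array. The shares over all genes were 0.320% over SVC and 3.97% over MWA, so 0 of 3 is no result about this family. Ece1, an endothelin-converting enzyme, had levels of 3.50 (SVC), 3.49 (SPA) and 4.52 (MWA). Mme, neprilysin itself, had 4.25, 4.54 and 4.40 at its brightest probe, and Mmel1 had -2.83, -2.87 and -3.43. A dimmer Mme probe had -4.30, -3.55 and -0.35, and another had -4.35 in SPA and -2.20 in MWA and was not detected in SVC. Which of these probes follows the Mme transcript was not tested. Ece2, Phex and Kel were detected on no array.

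Because Ecel1 is known as a gene of injured neurons, genes of the nerve injury response were read beside it. Of 15 such genes, 14 were detected on 1 array or more, 0 were raised 5-fold or more in SPA over SVC and 0 reduced as much. Of the 22808 genes detected in SPA or SVC, 73 were so raised and 80 so reduced, so neither 0 is a result about these genes. Over the 13 genes detected on both arrays, SPA over SVC had a median log2 ratio of -0.14, against 0.05 over all genes detected on both. The transcription factor gene Atf3 had levels of 1.10 (SVC), 2.84 (SPA) and 4.60 (MWA), so it was highest in MWA. The neuropeptide gene Npy had 1.98 in SVC and 3.50 in SPA and was not detected in MWA, with SPA at least 401-fold above MWA. Gap43 and Sox11, growth-associated genes of regenerating neurons, were lower in SPA than in SVC, by 2.82-fold and at least 3.53-fold. Of 8 neuronal markers, Nefl and Nefm were 2.59-fold and 2.30-fold higher in SPA than in SVC, whereas Stmn2, Tubb3 and Snap25 were 3.38-fold, 1.42-fold and 1.12-fold lower. Syt1 was detected on no array and Rbfox3 and Elavl3 were so only in MWA. The summed signal of the neuronal list, in multiples of the array's 75th percentile, was 13.2 (SVC), 12.6 (SPA) and 9.63 (MWA), most of it from Snap25. Of 6 Schwann cell markers, all were detected in SPA, Sox10 and Ngfr were 2.55-fold and 3.55-fold higher than in SVC, and the summed signal was 3.35 (SVC), 3.40 (SPA) and 5.90 (MWA). The part of these cells in the Ecel1 signal was not tested, and in such bulk RNA fewer cells of a type and less RNA per cell cannot be told apart.

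Fetub gave a signal of 326 (SVC), 2348 (SPA) and 10.2 (MWA), with errors of 32.8, 235 and 2.58. The levels were -0.40, 2.42 and -5.16, and the MWA spot was just under the lowest level detected, -5.15. SPA was 7.06-fold above SVC and at least 190-fold above MWA, and SVC was at least 26.9-fold above MWA. Its only probe lies on the plus strand of chromosome 16, and the middle 30 of its bases are at chr16:22939751-22939780 in mm9.
Fetub: aaatgggaggtggtggggattgggaaggac
Fetub is a liver gene in the adult, and liver markers were read beside it. Alb, Ttr, Apoa1 and Fgb, the defining genes of hepatocytes, were not detected in SPA or in SVC, and Alb was detected in MWA, at 0.20. Ahsg, which encodes fetuin-A and lies beside Fetub, had levels of -4.36 (SVC), -4.66 (SPA) and -3.36 (MWA). In SPA, Apoh was 3.38-fold above SVC and at least 8.99-fold above MWA, and Serpina1a, at -2.0 in SPA, was at least 7.72-fold above SVC and 287-fold below MWA. The summed signal of the 7 hepatocyte genes was 0.188 (SVC), 0.574 (SPA) and 72.7 (MWA), the last nearly all from Serpina1a. The part of liver cells in the Fetub signal was not tested. Of the astacin proteases, the family of the Fetub target ovastacin, Astl, the ovastacin gene, had levels of -1.37, -1.30 and -1.14. Mep1a, the gene of another astacin protease, was detected only in SPA, at -3.47, at least 2.79-fold above SVC and at least 3.20-fold above MWA.

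The RefSeq table of promoters, 250 bases before to 50 after a start site in GRCm38.p6, held 2 start sites for Fetub and 1 for Ecel1, 1700008C04Rik and 9530059O14Rik, and none for Cst6 or Clca4a. These windows are given as a description of the 4 genes that have one, and likeness between promoters was not tested. Counting the first base of the transcript as 1, the first Fetub window (chr16:22918132-22918431, plus strand) had a TATA box, TATAAA, at -31, a GC box, GGGCGG, at -186 and CCAAT boxes, CCAAT or its reverse complement, at -218 and 45, all in capitals below. The Ecel1 window (chr1:87156307-87156606, minus strand) had only a CCAAT box, at -142, among the motifs searched.
Fetub, first start site: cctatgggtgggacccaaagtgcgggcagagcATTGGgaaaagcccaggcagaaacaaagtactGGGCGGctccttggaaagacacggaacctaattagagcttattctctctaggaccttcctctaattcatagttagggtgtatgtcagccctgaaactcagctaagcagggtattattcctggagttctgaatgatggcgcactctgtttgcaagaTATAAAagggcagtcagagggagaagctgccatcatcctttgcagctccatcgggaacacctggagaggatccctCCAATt
Ecel1: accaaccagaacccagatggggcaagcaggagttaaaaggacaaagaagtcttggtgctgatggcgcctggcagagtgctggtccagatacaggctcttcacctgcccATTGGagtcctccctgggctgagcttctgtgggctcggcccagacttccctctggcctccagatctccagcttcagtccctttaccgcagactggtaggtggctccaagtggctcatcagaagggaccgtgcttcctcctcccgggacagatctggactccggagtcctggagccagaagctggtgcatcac
The search covered 8 motifs on both strands, and the shares of the 32851 promoters of the same length that held each were 13.6% for TATAAA, 37.4% for CCAAT, 35.7% for GGGCGG, 7.81% for TGANTCA, 1.79% for TGACGTCA, 7.15% for CACGTG, 12.4% for TGACNNNGC and 32.4% for GCGTG. The second Fetub window held GCGTG at -212 and -100, TGACNNNGC at -110 and GGGCGG at -96, where GGGCGG overlaps the nearer GCGTG by 1 base. The 9530059O14Rik window had a GC content of 75.7%, against a median of 52.7% over all promoters, and held CACGTG as well as CCAAT and more than 1 copy of GGGCGG. The 1700008C04Rik window, at 45.7% GC, held none of the 8 motifs. No motif occurred in all 5 windows, which is no result beside shares of 1.79% to 37.4% per motif. A match is a run of letters and not a shown binding site.

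Cst6 was detected on all arrays. Its signal was 697 (SVC), 5626 (SPA) and 120 (MWA), with errors of 69.7, 563 and 12.2, and the levels were 0.69, 3.68 and -1.61. SPA was 7.92-fold above SVC and 39.1-fold above MWA, and MWA was 4.93-fold below SVC. The probe lies on the minus strand of chromosome 19, and its middle 30 bases are at chr19:5347997-5348026 in mm9.
Cst6: ccttgaagtcccctggaagaacactactca
The proteases that cystatin E/M inhibits, and their relatives, were all detected on every array. Legumain, Lgmn, had levels of 5.65 (SVC), 6.01 (SPA) and 4.15 (MWA), and cathepsin L, Ctsl, had 6.52, 7.36 and 6.17. Of the 8 proteases, 0 were raised 5-fold or more in SPA over SVC, with a median log2 ratio of 0.45. The share over all genes was 0.320%, so 0 of 8 is no result about them. Against MWA, where the share was 3.97%, Ctss and Ctsz were 11.2-fold and 5.26-fold higher in SPA. The median log2 ratio there was 1.80 against 0.08 over all genes. The largest log2 ratio of SPA over SVC among the proteases was 1.38 in Ctsk, the gene of cathepsin K.

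Of the 19 members of the cystatin superfamily on the arrays, 12 were detected on 1 array or more. Of these 2, Cst6 and Fetub, were raised 5-fold or more in SPA over SVC, and both had been chosen for their height in SPA. Cst3, which encodes cystatin C, had levels of 6.03 (SVC), 6.64 (SPA) and 7.29 (MWA). Cstb, which encodes the intracellular cystatin B, had 5.44, 5.94 and 3.87, the order of Cst6 and Fetub with smaller ratios. The stefin genes Stfa2 and Stfa3 were 1.74-fold and 1.92-fold above SVC in SPA, and Kng1, a kininogen gene near Fetub, was 2.77-fold lower. Skin markers were read because Cst6 is known from epidermis. Krt14 was 4.15-fold lower in SPA than in SVC, Krt5 was 1.30-fold higher, and Krt15, Sprr1b and Ivl were detected on no array. The summed signal of the 8 keratinocyte genes was 5.94 (SVC), 6.11 (SPA) and 9.87 (MWA), most of it from Trp63.

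**Figure D3:**
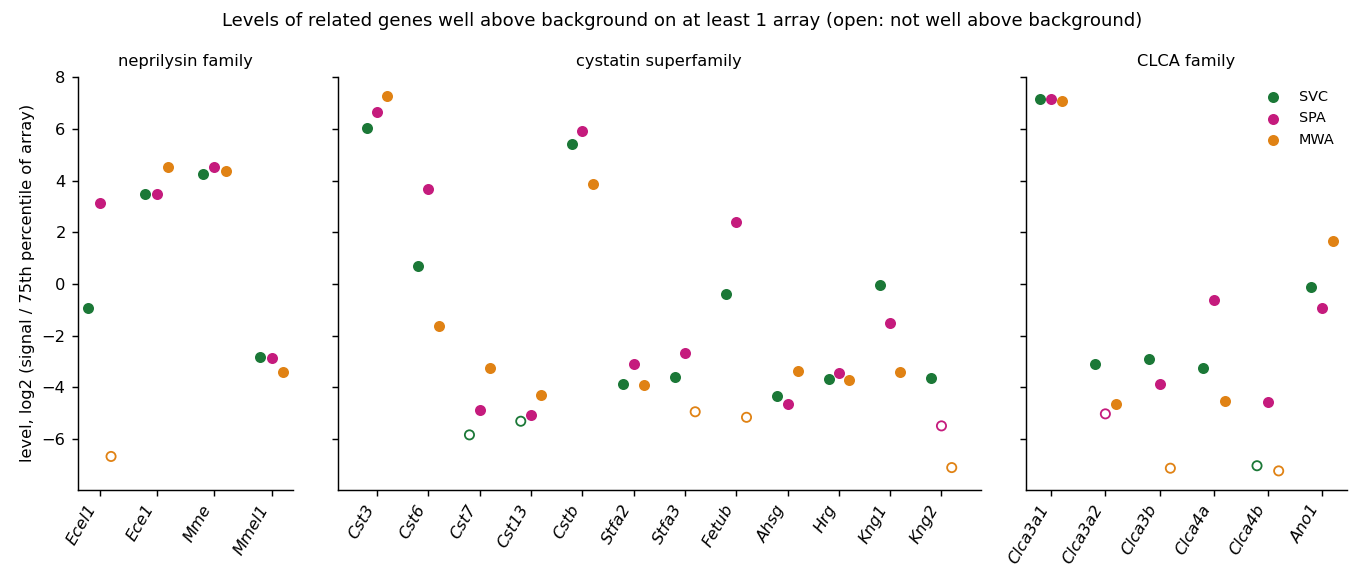
Level of each gene of the neprilysin, cystatin and chloride channel regulator families that was detected on 1 array or more (vertical axis, log2 of the signal over the array's 75th percentile), with 1 array each of SVC, SPA and MWA. Ecel1, Cst6, Fetub and Clca4a show SPA far above both other arrays, whereas Ece1, Mme, Cst3, Cstb and Clca3a1 have all 3 points within 2.06 log2 units. Each gene is shown at its brightest probe, and dimmer probes of Ecel1, Mme and Clca3a1 gave other patterns.

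Clca4a gave a signal of 44.8 (SVC), 285 (SPA) and 16 (MWA), with errors of 5.66, 28.7 and 3.00, and the levels were -3.27, -0.62 and -4.51. All 3 spots were detected. SPA was 6.24-fold above SVC and 14.8-fold above MWA, and MWA was 2.37-fold below SVC. The probe is on the minus strand of chromosome 3, and its middle 30 bases are at chr3:144615720-144615749 in mm9.
Clca4a: attgtgctgtctgttttgggcgctcttgtt
Most of the family lies in a cluster around Clca4a. Clca3a1 had levels of 7.16 (SVC), 7.15 (SPA) and 7.10 (MWA) at its brightest probe. Another of its probes had -2.21, -4.60 and -4.43, with a log2 ratio of SPA over SVC of -2.39. Its remaining probe had -2.46 in SVC and -4.32 in MWA and was not detected in SPA. Which of these probes follows the Clca3a1 transcript was not tested. Clca3b was 2.0-fold lower in SPA than in SVC. Clca4b, about 41 kb from the Clca4a probe, was detected only in SPA, at -4.56, which was at least 1.31-fold above SVC and at least 1.5-fold above MWA, so the size of its peak is not known. Clca1 and Clca2 were detected on no array. Of 6 intestinal or secretory epithelial markers, 0 were detected in SPA.

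The Clca4a spot was the only one of the 9 marked for an outlying local background, on the array of SPA. Its local background was 36 there, against 30 in SVC and 28 in MWA. Of the 205 spots within 8 columns and 16 rows of it that were not detected in SVC, 36.6% were detected in SPA, compared with 9.77% of such spots over the whole array. Around the other 8 spots this share was 7.05% to 14.7%. The raised spots were dim. The 205 spots had a median SPA signal of 6.52 and a top 5% from 36.2 upward, and 0 of them reached the 285 of Clca4a. They were picked as not detected in SVC, whereas Clca4a was detected there, so they were dim by choice. The part of the surroundings in the Clca4a signal was not tested. When spots with an outlying local background were left out, Clca4a had no value in SPA, so the ratio rests on this 1 spot.

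**Figure D4:**
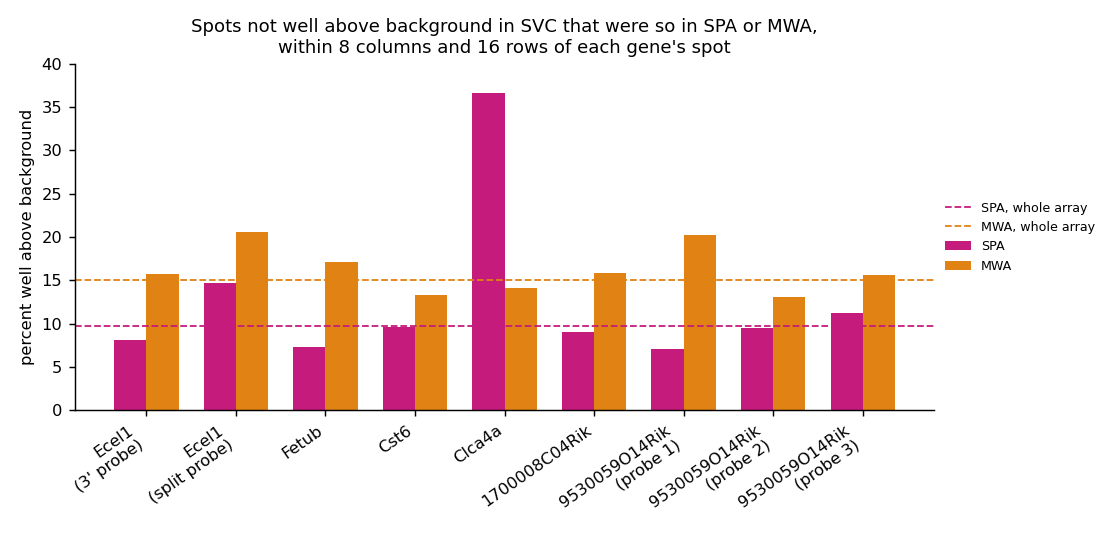
Share of the spots around each probe's spot that were not detected in SVC but were so in SPA (pink) or MWA (orange), in percent, with dashed lines for the whole arrays. The SPA bar at Clca4a, 36.6%, stands well above the SPA line at 9.77%, and the other SPA bars are at 14.7% or lower.

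The noncoding RNA 1700008C04Rik was detected in SPA alone. Its signal was 86.4 in SPA with an error of 16.7, against 3.44 in SVC and 2.51 in MWA, neither of them detected. SPA was at least 6.09-fold above SVC and at least 6.98-fold above MWA, and no ratio can be given between SVC and MWA. Its single probe, shown whole because it is all that identifies this transcript on the arrays, lies at chr12:52163379-52163438, plus strand, in mm9.
1700008C04Rik: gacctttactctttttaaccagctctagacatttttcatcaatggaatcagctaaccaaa

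9530059O14Rik was read by 3 probes, and SPA was the highest array at each. The first probe gave 21.6 (SVC), 166 (SPA) and 9.26 (MWA), and the second gave 18.9, 165 and 2.25, with MWA not detected at either. SPA was 7.51-fold above SVC at the first probe and 8.59-fold at the second, and at least 13.4-fold above MWA at both. The last probe gave 53.7 in SPA, and neither 7.96 in SVC nor 2.37 in MWA was detected, so SPA was at least 3.79-fold above SVC and at least 4.34-fold above MWA. The first 2 probes adjoin each other at chr9:122587249-122587308 and chr9:122587309-122587368 on the plus strand, and the last one lies at chr9:122489339-122489398, 98.0 kb away in mm9. The array assigns only the last probe to the RefSeq transcript of the gene, and the first 2 to another sequence record. At the last probe neither bound reaches the 5-fold limit. The gene is 8.15 kb long in the RefSeq table, so the probes span more than 1 such gene. Whether they read 1 transcript was not tested. The sequences show where the probes of this gene join.
9530059O14Rik, first probe: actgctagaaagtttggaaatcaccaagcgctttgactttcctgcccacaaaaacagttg
9530059O14Rik, second probe: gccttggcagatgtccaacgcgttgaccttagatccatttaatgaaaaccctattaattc
9530059O14Rik, last probe: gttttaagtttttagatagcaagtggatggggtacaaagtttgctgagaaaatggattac

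The dimmer of these genes depended on the background correction. With the normexp correction, which adds an offset of 50 to each signal, SPA was 3.12-fold above SVC in Clca4a, 2.58-fold in 9530059O14Rik and 1.97-fold in 1700008C04Rik. Against MWA the ratios were 3.75-fold, 2.70-fold and 1.83-fold, all under 5-fold and in the same direction. Ecel1, Cst6 and Fetub stayed above 5-fold with this correction, at 13.4-fold, 7.31-fold and 6.06-fold over SVC. Of 300 probes spotted 10 times on each array, those with signals of 1000 or more had a median SD of 0.04 log2 units in SPA, and those between 30 and 100 had 0.12 over 4 probes. This spread within an array does not cover that between cultures or animals, and in SVC 0 of the repeated probes had a signal between 10 and 30, where the first 2 probes of 9530059O14Rik lay.

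Within 250 kb of the probes read for the 6 genes lay 85 other genes of the array annotation, of which 55 were detected on 1 array or more, and 0 of these were raised 5-fold or more in SPA over both other arrays. The share over all genes was 0.123%, so 0 of 55 is no result about these neighbours. Smaller peaks in SPA did occur among them. Beside Ecel1, Prss56 at 40.6 kb had a log2 ratio of SPA over SVC of 0.81 and of at least 1.43 over MWA, and Eif4e2 at 78.5 kb one of -0.17. Beside Fetub, Hrg at 21.7 kb had levels of -3.68, -3.43 and -3.71. Adipoq, the adiponectin gene, lies 218 kb from the Fetub probe and was the 1 neighbour raised 5-fold or more in SPA over SVC, but it was 118-fold higher in MWA than in SPA. Beside Cst6, the AP-1 gene Fosl1 at 107.5 kb had levels of 0.30 (SVC), 1.21 (SPA) and -0.49 (MWA), and Efemp2 at 133.8 kb was the 1 neighbour raised 5-fold or more in SPA over MWA, with a log2 ratio of 3.32 and of 0.15 over SVC. Of the 4 detected neighbours of 9530059O14Rik, Topaz1 was detected only in MWA. The others, and the 2 of 1700008C04Rik, had log2 ratios of SPA over SVC between -0.02 and 0.28.

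**Figure D5:**
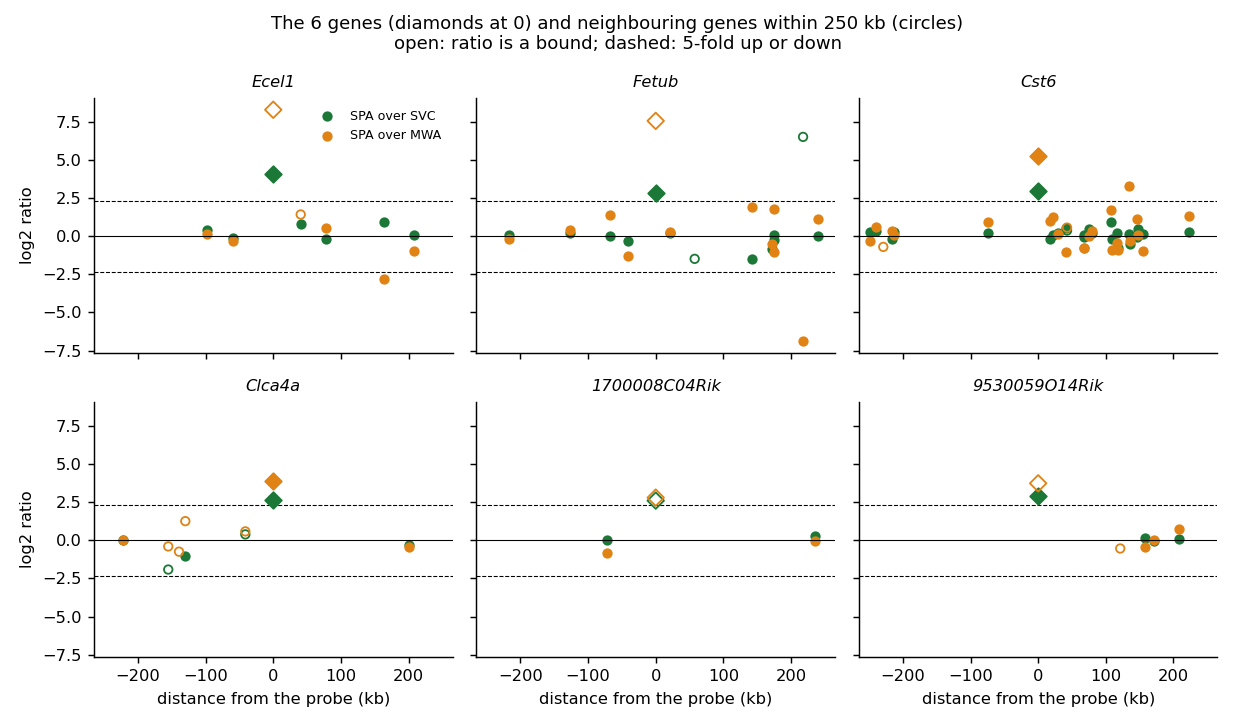
The log2 ratio of SPA over SVC (green) and over MWA (orange) for the 6 genes (diamonds) and for the genes within 250 kb (circles), against the distance from the probe in kb, with open symbols where the ratio is a bound. The diamonds stand above the dashed 5-fold line in every panel, and of the circles only Adipoq near Fetub and Efemp2 near Cst6 pass that line upward.

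The genes most like each of the 6 were found by the distance between their pairs of plain log2 ratios, SPA minus SVC and SPA minus MWA, among genes detected on the same arrays. This is a description over 3 arrays. Only Cst6 and Clca4a were detected on all arrays, so that both differences were measured for them and for the genes set beside them. Nearest to Cst6 were Prl2c1, a proliferin gene, at a distance of 0.82 log2 units, Map7d2 at 1.15 and Slc6a12 at 1.20. Nearest to Clca4a were Srxn1, which encodes sulfiredoxin, at 0.51, the iron exporter gene Slc40a1 at 0.54 and Abcc4 at 0.71. Ecel1 at its 3′ probe, Fetub and 9530059O14Rik were not detected in MWA, nor were the genes set beside them, so their distances rest in part on signals not above background, have no order and are not given. The 3 genes that came nearest to Ecel1 in this way were the proliferin gene Prl2c3 and Gsta2 and Slc7a11, genes of glutathione conjugation and cystine import, and their measured log2 ratios of SPA over SVC were 4.73, 3.08 and 2.38, beside 4.09 in Ecel1. Those beside Fetub, at 2.82, were Glp2r, Oit3 and B430306N03Rik, at 2.0, 2.26 and 1.74. Those beside 9530059O14Rik, at 2.91, were Tpsab1, Gm867 and Ggt1, at 2.52, 1.83 and 2.12. For 1700008C04Rik, detected in SPA alone, no likeness was measured and no gene is named.

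Some proliferins and clade B serpins peak in the same sample. Prl2c5 had levels of 2.25 (SVC), 6.52 (SPA) and -6.71 (MWA), and Serpinb9f had -7.05, -0.41 and -7.26. Of the 4 proliferin and prolactin receptor genes read, 3 were raised 5-fold or more in SPA over SVC. Of the 15 clade B serpins, 14 were detected on 1 array or more and 4 were so raised. The share over all genes was 0.320%. Like 1700008C04Rik, Serpinb9f and Serpinb9e were detected only in SPA. These families were also chosen with these data known, and no difference between them and the 6 genes was tested.

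Markers of other cell types moved between the arrays as well. The summed signal of the 10 adipocyte markers was 46.4 (SVC), 180.5 (SPA) and 3819 (MWA), so it was highest in MWA. The 6 genes were highest in SPA, for which they had been chosen. Of the 10 markers, 7 were raised 5-fold or more in SPA over SVC, beside 0.320% of the 22808 genes detected in SPA or SVC. Of the 8 mesothelial markers, 5 were reduced 5-fold or more in SPA against SVC, beside 80 of the 22808 genes. The mesothelial sums were 71.9 (SVC), 17.9 (SPA) and 26.7 (MWA). Of the 8 macrophage markers read, C1qa and C1qb were 9.12-fold and 5.59-fold lower in SPA than in SVC. Mrc1 was 1.38-fold lower and Cd163 at least 1.67-fold lower. Cd68 was 1.84-fold higher, and Csf1r, Lyz2 and Adgre1 were 1.04-fold to 1.19-fold higher. The summed macrophage signals were 533, 586 and 190, most of each from Lyz2. The 9 fibroblast markers summed to 550, 261 and 572, the 6 smooth muscle and pericyte markers to 727, 329 and 55.3, and the 7 endothelial markers to 3.27, 5.41 and 81.2. Lymphocyte markers, 6 genes, summed to 3.55, 3.83 and 4.88, mostly from Cd3e in SVC and SPA, and trophoblast markers, 6 genes, to 43.4, 56.2 and 67.9, nearly all from Gcm1, with levels of 5.43, 5.80 and 6.08. Of the 9 genes of epididymal epithelium 1, Rnase10, was detected in SPA, at -1.65 against -1.36 in both SVC and MWA. The part of any of these cells in the signals of the 6 genes was not tested.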

How the data were processed

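Total RNA of SVC, SPA and MWA, 50 ng each, was labeled with Cy3 and hybridized by the authors to 1 Agilent SurePrint G3 mouse array per group, on 1 slide. The authors deposited, for each spot, the intensity from Agilent Feature Extraction 10.7.3.1, named in the submitters' processing notes, as the processed signal, raw mean signal, local background and flags. They also deposited a ratio per spot, which equals the processed signal divided by 1 constant per array within a relative departure of 1.37e-06. The 0 saturated spots needed no bound. Control spots and 75 to 129 outlier spots per array were left out, spots of a probe were averaged, and each array was scaled to its 75th percentile over spots other than controls. Each gene was read at the probe whose mean level over the arrays was highest, and 5-fold was the limit for a call. The fold changes cover no error between animals, since each group has 1 array, whose number limits the precision.

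The genes and lists were chosen with earlier results of these data known. The genes named are the 6 genes, list genes, the 3 most similar genes per member (none for 1700008C04Rik, detected in SPA alone) and genes with a probe within 250 kb. Probe positions come from the annotation of the array (mm9), and names were updated through RefSeq (GRCm38.p6), where 32993 probes matched and 1535 changed name. Promoters are from RefSeq. The calculation was tested on simulated data. Alternatives were the normexp correction in limma 3.58.1 (R 4.3.3) with an offset of 50, quantile scaling, scaling over the probes detected everywhere, no filter, the deposited ratios, only probes measured on both arrays, a gene's median or most favourable probe, and omission of spots whose local background was outlying. Reading each gene at its least favourable probe was added after seeing the data. Python 3.11.15 with numpy 2.4.6, pandas 2.3.3 and matplotlib 3.10.9 was used. The real-time PCR and imaging of the study were not analysed here.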

Additional observations from a re-analysis of the deposited data

How the results depend on the processing

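Over 10 other settings, the 12 ratios of the 6 genes were recomputed 113 times. All 113 kept SPA above the other array, and 103 stayed at 5-fold or more. The genes had been chosen for their height in SPA on these same arrays, so this is no independent check. Fetub, Cst6, Clca4a and 1700008C04Rik have 1 probe each, so the choice of probe could not change their ratios. With the normexp correction, 3 of the 6 genes exceeded SVC by 5-fold or more in SPA, 3 exceeded MWA, and 14 genes of all exceeded both. The offset of 50 shrinks ratios of dim spots by its construction. With only probes measured on both arrays, 2 of the 6 genes remained against MWA and 8 of all genes against both, because bounds are left out. Without the filter on dim spots, 173 genes of all exceeded both. With the least favourable probe of each gene, the log2 ratios of SPA over SVC and over MWA were 1.59 and 0.70 in Ecel1, and 1.92 and 2.12 in 9530059O14Rik. A fit with the slide as a block was not run, since all arrays share 1 slide. No paired analysis was possible because each group holds 1 array. Dim signals limit 1700008C04Rik and 9530059O14Rik most.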
